A study of Homo sapiens with 12 samples.

Results

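The comparison set 4 arrays labelled induced U-H01 against all 4 HBL-1 arrays, 8 of the 12 arrays of the series. The arrays were chosen by their titles alone: populations B1 and B2 of U-H01, each at time points 1 and 2 after doxycycline, and population C of HBL-1, uninduced and induced, each at time points 1 and 2. U-H01 is an established cell line of classical Hodgkin lymphoma, and HBL-1 is an established line of diffuse large B-cell lymphoma of the activated B-cell-like type. All cells of both lines carried doxycycline-inducible short hairpin RNAs (shRNAs) aimed at RelB or cRel, 2 sequences for each, so the uninduced HBL-1 cells were transduced controls and not untouched ones. The labels give the treated B2 arrays as sequence 2 but do not say which letter carries which hairpin, and the lengths of the time points are not given, except that HBL-1 labels call them days. Population letter and cell line change together between the 2 sets, so hairpin population and line cannot be told apart. Uninduced arrays stand only on the HBL-1 side, so treatment is not balanced either. The design text also names RelA. Transduced populations rather than single clones were used, as far as the labels say, and no label ties the arrays of a population to separate cultures. The p-values therefore rest on the scatter of these 8 arrays, part of which may be technical.

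Hodgkin lymphoma cells descend from germinal-centre B cells that have lost most of the B-cell programme, including the B-cell receptor, and carry the TNF receptor CD30. Activated B-cell-like lymphoma cells keep that programme and rely on signals from the B-cell receptor. In both diseases NF-kB, a family of transcription factors built from 5 subunits, is active without interruption: the canonical arm works through RELA, cRel and NFKB1, and the non-canonical arm through RELB and NFKB2.

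Before the values, 1 feature of the arrays limits how the U-H01 label can be read. In a check for mixed-up samples, 4 of the 8 arrays labelled U-H01 differed from the rest of that label, and 0 of the 4 HBL-1 arrays differed from theirs. Over 19460 probe sets, the 4 labelled induced arrays correlated with each other at r of 0.992 to 0.994, with HBL-1 at 0.904 to 0.917 and with the 4 uninduced U-H01 arrays at 0.893 to 0.910. The labelled induced arrays thus stood about as far from the uninduced arrays of their own label as from HBL-1, and they are called by their label throughout. Of the 5 measured B-lineage markers, 4 lay above the median gene in the labelled induced arrays, 5 in HBL-1 and 2 in uninduced U-H01. Of 7 Hodgkin markers, 6, 6 and 7 did so in the same order, of 4 plasma-cell markers 4, 4 and 3, of 5 myeloid markers 0 in each set, of 7 T- and NK-cell markers 2, 1 and 2, and of 7 stromal, endothelial and epithelial markers 2 in each set. In the labelled induced and the HBL-1 arrays, the mean level of the B-lineage markers was 8.61 to 8.89 against 10.19 to 10.35, of the Hodgkin markers 8.03 to 8.25 against 7.21 to 7.34 and of the plasma-cell markers 8.83 to 9.19 against 7.53 to 8.03. It was 5.05 to 5.32 against 4.95 to 5.06 for T- and NK-cell markers, 4.09 to 4.34 against 4.09 to 4.24 for myeloid and 5.21 to 5.32 against 5.40 to 5.49 for stromal, endothelial and epithelial markers. The median gene lay at 6.17 and 6.24, and at 6.31 in uninduced U-H01. The B-lineage marker CD79B passed it narrowly in the labelled induced arrays (mean 6.27) and in uninduced U-H01 (6.325), but lay at 10.80 in HBL-1. Much of the gap in the Hodgkin markers lay in the CD30 gene TNFRSF8, with a mean of 11.59 against 6.63. CD70 (9.16 against 8.89), CCL17 (6.56 against 6.37), FSCN1 (6.91 against 6.88) and GATA3 (4.81 against 4.94) differed little. Uninduced U-H01 had a mean level of the Hodgkin markers of 8.39 to 8.48.

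Values are log2 signals, so a difference of 1 is a 2-fold difference, and differences are labelled induced U-H01 minus HBL-1 with their standard error (SE). U-H01 values are given in the order B1 time 1, B1 time 2, B2 time 1 and B2 time 2, and HBL-1 values in the order uninduced 1, induced 1, uninduced 2 and induced 2. Probe sets differ in brightness, so apart from this rough check of markers against the median gene, levels are compared only within a gene. A gene was called where its adjusted p (limma, Benjamini-Hochberg) was under 0.05, and not overlapping where every value of one set lay above every value of the other. The microarray signal of a cell population does not tell more cells with a transcript from more transcript per cell.

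Of 18417 genes, 7578 were called (41.1%), 3473 higher (18.9%) and 4105 lower (22.3%) in the labelled induced arrays. The 4 and 4 arrays did not overlap in 7310 genes (39.7%), 3351 higher (18.2%) and 3959 lower (21.5%). Both held for 6827 genes, while 483 did not overlap but missed the threshold and 751 were called although the sets overlapped. Of the genes without overlap, 624 differed by under 1.2-fold, so the absence of overlap alone does not mark a large difference. Near this border, ANXA11 and RELB did not overlap by 0.003 and 0.007 log2 units, and MAP3K7 and HS6ST1 overlapped by 0.017 and 0.025. Over 2-fold differences were called in 2332 genes, 1067 higher and 1265 lower, and over 16-fold differences in 164 genes, 63 higher and 101 lower. The median difference of all genes was -0.003 and the median size of a difference 0.186. The glycolytic enzyme GAPDH lay near the diagonal (13.58, 13.68, 13.52 and 13.80 against 13.62, 13.59, 13.55 and 13.61). With so many genes called, a gene list is read against the share of all genes called, and only its count, its median and its members' values are given. That share joins bright and dim genes. With only genes above the median level tested, 5853 were called. The share was therefore above 41.1% among bright genes and under it among dim ones. Lists were not matched for level, so 41.1% is only a rough yardstick for them. A list of bright genes can pass 41.1% and still not pass the share of bright genes.

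**Figure D1:**
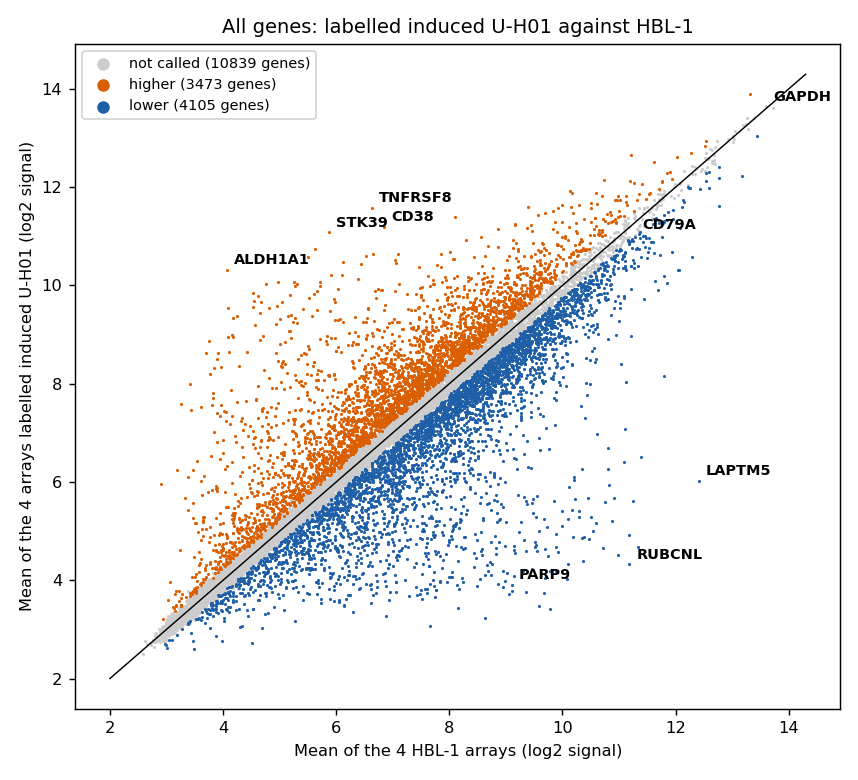
Each point is a gene, with the mean log2 signal of the 4 HBL-1 arrays on the horizontal axis and of the 4 arrays labelled induced U-H01 on the vertical axis. Orange marks the 3473 genes called higher and blue the 4105 called lower in the labelled induced arrays, grey the rest, and the line marks equal levels. Genes of the Y chromosome and of X inactivation are counted but not drawn.

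The largest higher differences joined receptors, kinases and metabolic enzymes of no single pathway. ALDH1A1, a retinaldehyde dehydrogenase, led them. Its labelled induced arrays read 10.21, 10.71, 10.30 and 10.08 and its HBL-1 arrays 4.15, 3.99, 3.98 and 4.16, a difference of 6.25 (SE 0.13, adjusted p = 2.0e-13), or 76.3-fold. F2R, the thrombin receptor, read 9.20, 9.67, 9.50 and 9.79 against 4.24, 4.0, 4.14 and 3.95 (43.8-fold). STK39, a kinase that regulates ion cotransporters, read 11.09, 11.33, 10.79 and 11.13 against 5.76, 5.68, 6.42 and 5.63, and ITGA4, the integrin alpha-4 chain, 9.76, 10.02, 9.35 and 9.61 against 4.52, 4.84, 4.43 and 4.41. In each of these the 4 labelled induced arrays lay together, more than 4 log2 units above the highest HBL-1 array. The other 8 of the 12 were GPRIN3 (5.30 ± 0.14), the olfactory receptor gene OR2V1 (5.28 ± 0.18), the ubiquitin-conjugating enzyme UBE2J1 of the endoplasmic reticulum (5.16 ± 0.10), the scaffold IQGAP2 (5.15 ± 0.10), the elongation-complex subunit MLLT3 (5.13 ± 0.12), the nicotinic receptor subunit CHRNA6 (5.13 ± 0.17), the orphan receptor GPR160 (5.11 ± 0.13) and the PI3-kinase gamma regulator PIK3R6 (5.10 ± 0.21). OR2V1 has a close paralog, OR2V2, from which its probes may not tell it apart.

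The uninduced U-H01 arrays were not part of the fit, and their levels are set beside these for description. They were low like HBL-1 for ALDH1A1 (3.95 to 4.49), F2R (3.99 to 4.24), GPRIN3 (4.30 to 4.46), UBE2J1 (4.22 to 4.53) and GPR160 (4.88 to 5.21). They were high like the labelled induced arrays for STK39 (10.39 to 10.52), ITGA4 (9.97 to 10.31) and CHRNA6 (9.80 to 10.06). MLLT3 lay between, at 7.11 to 7.34.

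The largest lower differences held several genes of mature B cells. MS4A1, which encodes the B-cell surface protein CD20, read 4.37, 4.62, 4.46 and 4.62 in the labelled induced arrays and 10.99, 10.90, 10.97 and 11.05 in HBL-1, a difference of -6.46 (SE 0.092, adjusted p = 2.9e-14), or 88-fold. RUBCNL, a regulator of autophagosome maturation, differed most, with 4.25, 4.50, 4.24 and 4.31 against 10.99, 11.17, 11.03 and 11.54 (116-fold). LAPTM5, a lysosomal membrane protein of blood cells, read 6.07, 6.0, 5.59 and 6.46 against 12.45, 12.33, 12.48 and 12.36. The B-cell Toll-like receptor homolog CD180 read 3.50, 3.50, 3.55 and 3.38 against 9.49, 9.67, 9.47 and 9.68, near the bottom of the measured range in every labelled induced array. The other 8 were the amyloid precursor APP (-6.66 ± 0.20), the fatty-acid elongation enzyme HSD17B12 (-6.36 ± 0.17), N-cadherin CDH2 (-6.26 ± 0.10), the lysosomal transporter MFSD1 (-6.06 ± 0.088), the interleukin-17 receptor chain IL17RB (-6.04 ± 0.09), the creatine-synthesis enzyme GATM (-5.97 ± 0.10), the zinc-finger gene ZNF841 (-5.94 ± 0.10) and AFF3 (-5.76 ± 0.11). Uninduced U-H01 was low as well for RUBCNL (4.28 to 4.90), MS4A1 (4.35 to 4.58), LAPTM5 (4.90 to 5.40), CD180 (3.16 to 3.47) and IL17RB (3.71 to 4.11). It lay between the sets for HSD17B12 (7.47 to 8.14), MFSD1 (8.46 to 8.64), CDH2 (6.59 to 7.26) and APP (6.33 to 6.80).

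**Figure D2:**
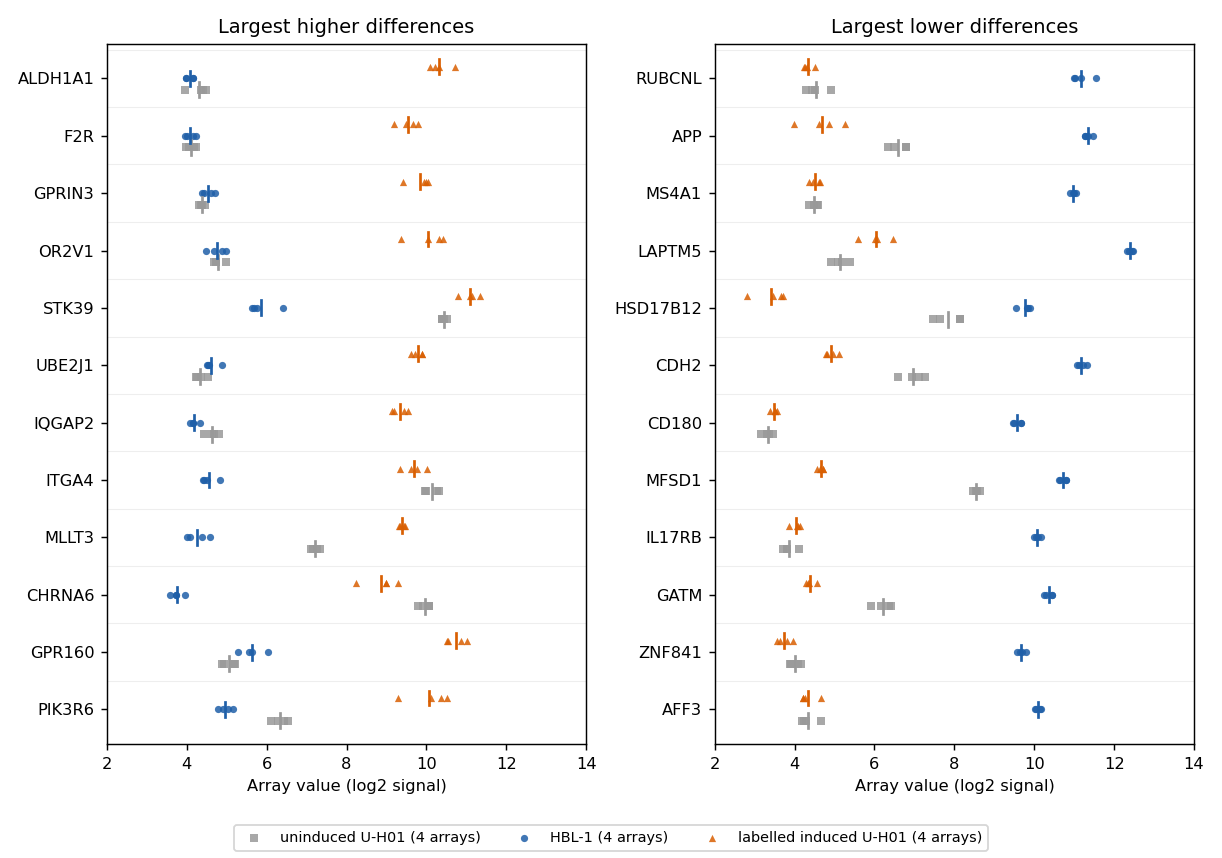
Log2 signal of single arrays for the 12 largest higher (left) and 12 largest lower (right) genes. Triangles are the 4 arrays labelled induced U-H01, circles the 4 HBL-1 arrays and squares the 4 uninduced U-H01 arrays, with a bar at each mean. The first pair of sets is apart in all 24 genes, while the squares lie near one of them in some genes, between them in others, and reach above the triangles for CHRNA6 and ITGA4.

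Genes of the B-cell receptor and its coreceptors were mostly lower in the labelled induced arrays. Of 23 measured, 17 were lower, 3 higher and 3 not called (87% called, against 41.1% of all genes), with a median difference of -2.77 against -0.003 for all genes. Besides MS4A1, the Fc receptor-like gene FCRLA read 5.40, 5.06, 5.05 and 5.33 against 10.94, 10.84, 10.93 and 10.83 (difference -5.68 ± 0.10). The receptor kinases BLK and BTK, which pass on the receptor's signal, read 5.03, 5.82, 5.51 and 5.29 against 10.32, 10.27, 10.31 and 10.30 and 5.36, 4.73, 5.0 and 5.32 against 9.99, 9.93, 9.97 and 10.04. Neither gene's sets came within 4 log2 units of each other. The receptor's signalling chain CD79B, named after its values were seen, was lower too (difference -4.54 ± 0.10), whereas its partner CD79A was not called. CD79A read 10.91, 11.34, 10.75 and 11.15 in the labelled induced arrays and 11.24, 11.33, 11.27 and 11.27 in HBL-1 (difference -0.24 ± 0.12, adjusted p = 0.131), and uninduced U-H01 lay at 5.55 to 5.84. The phospholipase PLCG2 read 12.37, 12.37, 12.26 and 12.30 against 12.44, 12.41, 12.43 and 12.52 (adjusted p = 0.261). It did not overlap between the sets, yet missed the threshold. The CD79A level of the labelled induced arrays was thus near that of HBL-1, while MS4A1, FCRLA, BLK and BTK lay near uninduced U-H01. PLCG2 was at a similar level in all sets, with uninduced U-H01 at 12.60 to 12.68.

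The transcription factors of B cells went both ways. Of 20 measured, 8 were higher, 10 lower and 2 not called (90% called, median -0.20). ID2, an inhibitor of basic helix-loop-helix factors, read 4.01, 4.64, 4.0 and 4.10 against 8.88, 8.99, 8.88 and 9.05 (-4.76 ± 0.13). SPIB, an ETS factor of B cells, read 5.54, 5.63, 5.52 and 5.74 against 9.61, 10.19, 9.53 and 10.05 (-4.24 ± 0.088), and BACH2, a repressor of the plasma-cell programme, 5.32, 4.98, 5.06 and 4.93 against 8.10, 8.20, 8.45 and 7.98 (-3.11 ± 0.11). MSC, also called ABF-1, a helix-loop-helix repressor found in Hodgkin cells, went the other way, with 9.58, 9.38, 9.23 and 9.35 against 5.42, 4.93, 5.50 and 4.75 (4.24 ± 0.10). FOXO1 (-0.12 ± 0.12, adjusted p = 0.477) and the T-cell factor GATA3 (-0.14 ± 0.10, adjusted p = 0.332) were not called. GATA3 read 4.65, 4.71, 5.05 and 4.82 in the labelled induced arrays and 4.90, 5.02, 4.82 and 5.03 in HBL-1, both far under uninduced U-H01 at 9.57 to 10.43.

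Plasma-cell genes were mostly higher. Of 16 measured, 9 were higher, 4 lower and 3 not called (81.2% called), with a median of 1.21. CD38, an ectoenzyme of plasma cells and germinal-centre cells, read 11.07, 11.40, 10.96 and 11.35 against 6.93, 6.63, 6.70 and 7.09 (4.36 ± 0.13, 20.5-fold). CD27, a TNF receptor of memory B cells and plasma cells, read 10.14, 9.67, 9.85 and 10.28 against 5.75, 5.56, 5.78 and 5.78 (4.27 ± 0.13). The membrane scaffold CAV1 read 10.07, 9.69, 9.85 and 9.67 against 5.38, 5.54, 5.66 and 5.84 (4.22 ± 0.12). XBP1, the transcription factor of secretory cells, was 3.42-fold higher (1.77 ± 0.091). In contrast, the immunoglobulin joining chain JCHAIN was lower, 3.63, 3.70, 3.46 and 4.50 against 7.49, 8.36, 7.96 and 8.87 (-4.35 ± 0.20), and the plasma-cell surface marker SDC1 (CD138) was not called (-0.22 ± 0.10, adjusted p = 0.0841). FKBP11 (0.12 ± 0.11) and SSR4 (-0.12 ± 0.10), of the secretory machinery, were not called either. Uninduced U-H01 lay under both sets for CD38 (4.53 to 4.64).

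Of the Hodgkin Reed-Sternberg genes, 8 of 29 were higher, 7 lower and 14 not called (51.7% called, median -0.11). TNFRSF8, which encodes CD30, read 11.54, 11.68, 11.47 and 11.66 in the labelled induced arrays and 6.74, 6.64, 6.51 and 6.61 in HBL-1, a difference of 4.96 ± 0.091 or 31.1-fold, while uninduced U-H01 lay at 6.65 to 7.09, close to HBL-1. IDO1, which degrades tryptophan, was lower, 3.75, 4.14, 4.18 and 3.90 against 10.00, 7.86, 9.97 and 8.13 (-5.0 ± 0.11). The HBL-1 values of IDO1 differed by induction, with the induced arrays lower, but even these lay above every labelled induced array. The chemokine CCL17 (0.19 ± 0.10), CD70 (0.26 ± 0.11) and the actin bundler FSCN1 (0.024 ± 0.12) were not called. The uninduced U-H01 level of FSCN1 was 8.58 to 9.03, above both other sets.

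Genes that separate activated B-cell-like from germinal-centre B-cell-like lymphoma gave 14 lower, 4 higher and 6 uncalled of 24 on the activated side (75% called, median -0.89). On the germinal-centre side 7 were higher, 8 lower and 7 not called of 22 (68.2% called, median -0.076). On the activated side, the reductase CYB5R2 read 4.47, 5.19, 4.67 and 5.41 against 9.99, 9.82, 9.95 and 9.75 (-4.94 ± 0.17). FOXP1, a transcription factor, read 5.01, 5.10, 5.45 and 5.47 against 9.66, 9.61, 9.68 and 9.73 (-4.41 ± 0.12), and the kinase PIM1 8.26, 7.95, 8.06 and 7.87 against 11.46, 10.91, 11.41 and 10.68 (-3.08 ± 0.10). All 3 were lower in every labelled induced array, whereas the kinase PIM2 (0.22 ± 0.10, adjusted p = 0.114) and STAT3 (0.24 ± 0.10, adjusted p = 0.0773) were not called. On the germinal-centre side, RGS13, a brake on G-protein signals, was lower (3.68, 3.72, 4.33 and 5.17 against 9.61, 9.13, 9.72 and 9.43) and IRAG2 too (-4.87 ± 0.16). DENND3 (4.80 ± 0.18) and GCSAM (4.23 ± 0.17) were higher. The list held TNFRSF13B, the receptor TACI, on the germinal-centre side, although it is commonly used as a gene of the activated side. The germinal-centre counts therefore hold a misplaced gene among the uncalled ones. TNFRSF13B was not called, with 10.17, 10.13, 10.19 and 10.21 against 10.70, 10.00, 10.60 and 9.99. Its induced HBL-1 arrays lay under and its uninduced ones above the labelled induced arrays.

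**Figure D3:**
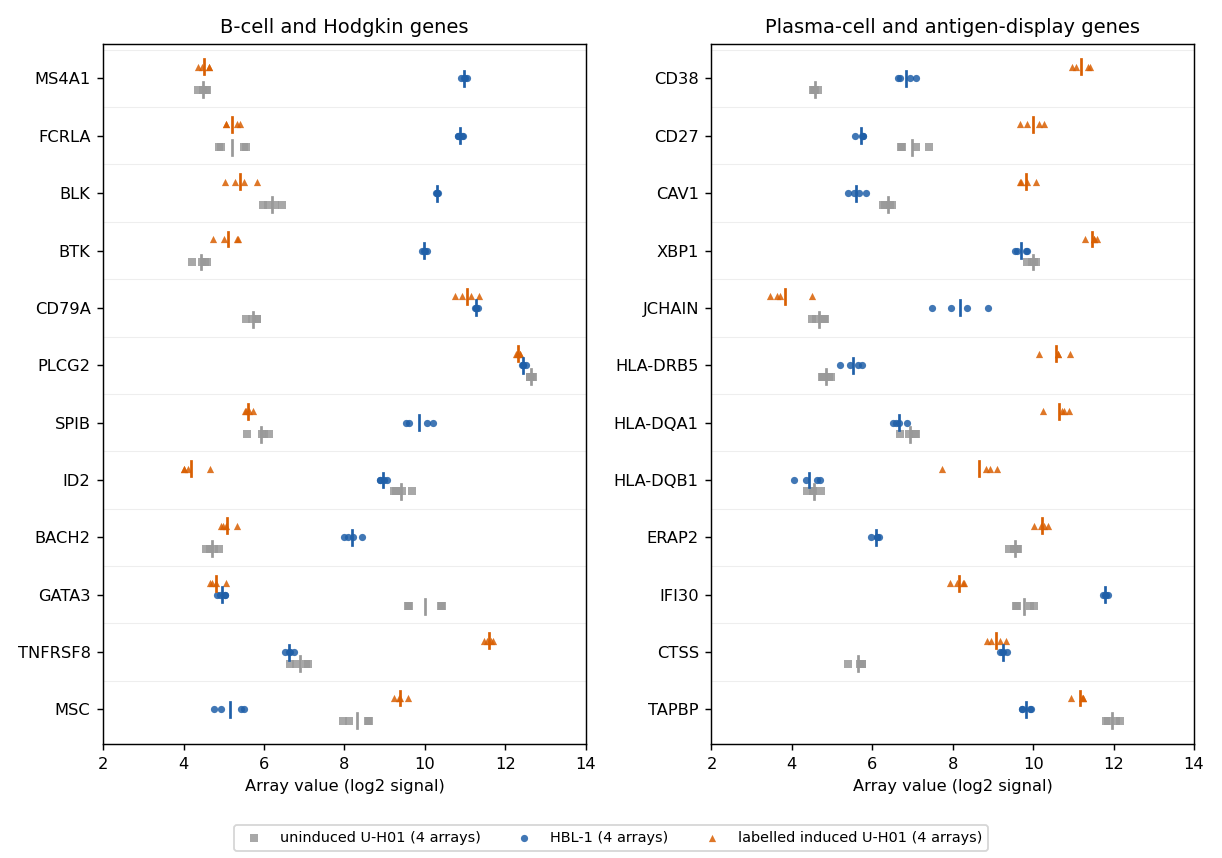
Log2 signal of single arrays for genes of B cells and Hodgkin cells (left) and of plasma cells and antigen display (right), drawn as triangles for the 4 arrays labelled induced U-H01, circles for the 4 HBL-1 arrays and squares for the 4 uninduced U-H01 arrays, with a bar at each mean. CD79A and CTSS show triangles on circles and apart from squares, MS4A1 triangles on squares, and TNFRSF8, CD38 and HLA-DRB5 triangles above both.

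Genes of MHC class II, which displays peptides to helper T cells, were mostly higher in the labelled induced arrays. Of 17 measured, 13 were higher, 3 lower and 1 not called (94.1% called), with a median of 0.88. HLA-DRB5 read 10.62, 10.90, 10.15 and 10.61 against 5.74, 5.21, 5.63 and 5.44 (5.06 ± 0.14), HLA-DQA1 10.71, 10.88, 10.24 and 10.76 against 6.86, 6.6, 6.67 and 6.51 (3.99 ± 0.13) and HLA-DQB1 8.83, 9.11, 7.72 and 8.93 against 4.71, 4.05, 4.63 and 4.34 (4.22 ± 0.23). In all of these the uninduced U-H01 arrays were low like HBL-1, at 4.76 to 4.98, 6.69 to 7.08 and 4.37 to 4.72. HLA genes are polymorphic and have near-identical copies, and HLA-DRB5 is absent from many haplotypes, so these probe sets can also read the alleles of the cells. IFI30, a thiol reductase that prepares antigens, went the other way, with 8.26, 7.94, 8.10 and 8.29 against 11.77, 11.74, 11.81 and 11.85 (-3.65 ± 0.10). The protease CTSS was not called, 9.18, 9.32, 8.84 and 8.94 against 9.24, 9.17, 9.23 and 9.34 (adjusted p = 0.247), while uninduced U-H01 lay at 5.39 to 5.74.

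Class I display genes were mostly higher too. Of 14 measured, 9 were higher, 1 lower and 4 not called (71.4% called, median 0.70). ERAP2, a peptidase that trims peptides in the endoplasmic reticulum, read 10.36, 10.27, 10.03 and 10.18 against 5.97, 6.13, 6.12 and 6.17 (4.11 ± 0.10). The immunoproteasome subunit PSMB8 (1.35 ± 0.094), the loading chaperone TAPBP (1.33 ± 0.094) and the peptide transporter TAP1 (1.31 ± 0.10) were each over 2-fold higher without overlap. Uninduced U-H01 stood higher still for TAP1 (11.59 to 11.79). CALR (-0.18 ± 0.10) and PSME2 (0.16 ± 0.10) were not called.

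The 5 NF-kB subunits, 2 of them the targets of the hairpins, differed by under 2-fold. REL, which encodes cRel, read 10.14, 10.30, 9.95 and 10.26 in the labelled induced arrays and 9.70, 9.13, 9.78 and 9.37 in HBL-1, a difference of 0.67 (SE 0.10, adjusted p = 8.6e-05). All 4 labelled induced arrays lay above all 4 HBL-1 arrays, and the induced HBL-1 arrays lay under the uninduced ones, so that with only the uninduced ones kept the difference was 0.42. RELB read 7.22, 7.26, 7.39 and 7.14 against 7.67, 7.57, 7.67 and 7.40, a difference of -0.32 (SE 0.089, adjusted p = 0.00887), also without overlap, but with only the induced HBL-1 arrays kept the difference was -0.23 and the adjusted p 0.167. NFKB1 was higher, with 10.17, 10.01, 10.14 and 10.11 against 9.35, 9.65, 9.47 and 9.62 (0.58 ± 0.084, adjusted p = 5.4e-05). RELA (-0.055 ± 0.085, adjusted p = 0.683) and NFKB2 (0.23 ± 0.10, adjusted p = 0.0869) were not called and their sets overlapped. Uninduced U-H01 lay at 9.88 to 10.05 for REL and at 7.22 to 7.54 for RELB, overlapping the range of the labelled induced arrays for both targets.

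Upstream of the subunits, 5 of 18 genes were higher, 3 lower and 10 not called (44.4% called, near the 41.1% of all genes). TRAF3, which holds the non-canonical arm in check by having its kinase degraded, stood out with 10.22, 9.97, 10.09 and 10.26 against 6.33, 6.45, 6.42 and 6.32 (3.75 ± 0.093, 13.5-fold). The adaptor TRAF5 (1.47 ± 0.11) and the kinase IKBKB, which releases the canonical arm (1.11 ± 0.092), were higher as well. The receptor CD40 was lower, with 7.76, 7.44, 6.95 and 7.75 against 8.55, 8.46, 8.65 and 8.29 (-1.01 ± 0.15). The kinases CHUK (0.016 ± 0.093, adjusted p = 0.926) and MAP3K7 (-0.18 ± 0.093, adjusted p = 0.15) were not called.

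Inhibitors and feedback genes of NF-kB, many of them induced by the factor that they restrain, split evenly. Of 18 measured, 8 were higher, 8 lower and 2 not called (88.9% called, median -0.15). TNIP3, which binds the ubiquitin editor A20, read 8.73, 8.22, 8.69 and 8.39 against 3.85, 3.90, 3.81 and 3.98 (4.62 ± 0.11), and TRAF1 8.80, 8.75, 7.90 and 8.86 against 6.45, 6.89, 6.82 and 6.82 (1.83 ± 0.18). TNFAIP8 went the other way, with 4.76, 4.91, 4.82 and 4.82 against 8.55, 8.54, 8.46 and 8.42 (-3.67 ± 0.083), as did the phosphatase PTPN1, with 8.15, 8.01, 7.99 and 7.88 against 10.46, 10.36, 10.47 and 10.38 (-2.41 ± 0.087). SQSTM1 (-0.10 ± 0.10) and N4BP1 (-0.19 ± 0.10) were not called. Uninduced U-H01 had TNIP3 at 8.68 to 9.00, as high as the labelled induced arrays, but TRAF1 at 5.74 to 6.0, under HBL-1.

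The promoters of these feedback genes were read for an element shared by both directions. The letters GGGANNNNCC, part of the kB site that NF-kB binds, were searched on both strands in the 250 bases before each RefSeq gene start (GRCh38.p14). Of 17 list members with a promoter entry, 11 held a match, and of all 27305 genes 25.8% did. Of the 8 higher members with an entry 5 held a match, of the 7 lower members 6, and of the 2 uncalled members 0. The stretches of 60 bases around the first match are shown for the 6 matching members with called differences over 2-fold, 5′ to 3′ on the gene's strand, with the matched letters in capitals.
TNIP3: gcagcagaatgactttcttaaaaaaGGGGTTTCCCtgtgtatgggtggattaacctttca
TNFAIP3: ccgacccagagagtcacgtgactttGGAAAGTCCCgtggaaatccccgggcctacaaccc
TRAF1: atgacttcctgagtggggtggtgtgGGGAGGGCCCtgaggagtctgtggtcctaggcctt
TNFAIP8: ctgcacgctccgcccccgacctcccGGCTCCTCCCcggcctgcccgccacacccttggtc
PTPN1: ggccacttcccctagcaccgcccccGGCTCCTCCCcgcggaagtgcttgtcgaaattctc
NFKBID: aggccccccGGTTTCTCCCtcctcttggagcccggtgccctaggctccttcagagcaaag

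The first 3 of these genes were higher and the last 3 lower in the labelled induced arrays, TNFAIP3 by 1.81 and NFKBID, an atypical inhibitor, by -1.81. The TNIP3 stretch is chr4:121227511-121227570, minus strand, and its match starts 62 bases before the gene start. That of TNFAIP3, which encodes A20, is chr6:137867167-137867226, plus strand (67 bases before), that of TRAF1 chr9:120926798-120926857, minus strand (36 bases before), that of TNFAIP8 chr5:119268675-119268734, plus strand (59 bases before), that of PTPN1 chr20:50510247-50510306, plus strand (111 bases before) and that of NFKBID chr19:35900731-35900790, minus strand (241 bases before). TNFAIP8 and PTPN1 carry the same 10 letters, and genes of both directions hold a match. A match describes these letters only and does not show binding.

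**Figure D4:**
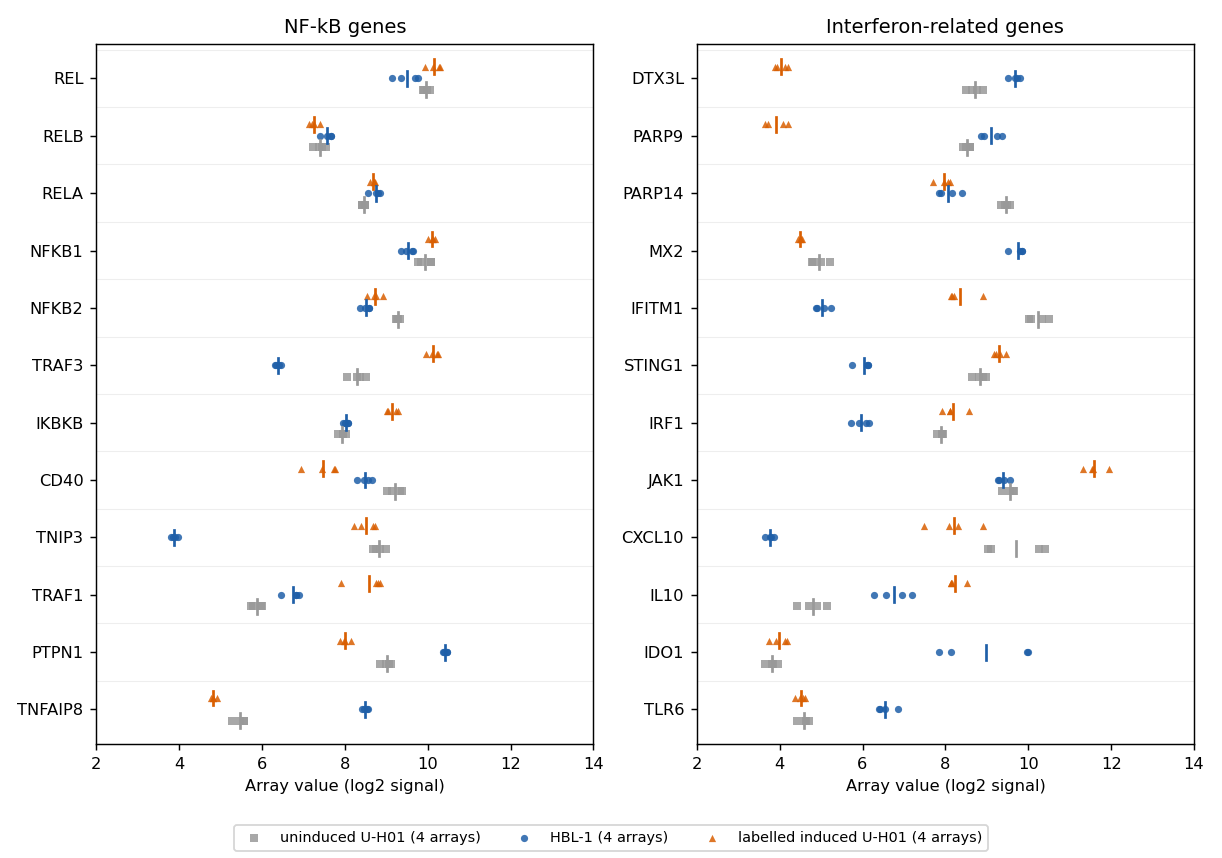
Log2 signal of single arrays for NF-kB genes (left) and interferon-related genes (right), drawn as triangles for the 4 arrays labelled induced U-H01, circles for the 4 HBL-1 arrays and squares for the 4 uninduced U-H01 arrays, with a bar at each mean. The subunits lie near one another in all 3 sets, while TRAF3, TNIP3, DTX3L, PARP9 and MX2 separate triangles from circles by more than 3 log2 units.

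Among interferon-stimulated genes the share called was near that of all genes. Of 41 measured, 10 were higher, 9 lower and 22 not called (46.3% called, median 0.084). The largest differences were lower ones. DTX3L, a ubiquitin ligase, read 4.21, 3.94, 3.88 and 4.13 against 9.52, 9.74, 9.68 and 9.81 (-5.65 ± 0.10), and its partner PARP9 4.08, 4.20, 3.65 and 3.73 against 8.87, 9.25, 8.93 and 9.36 (-5.19 ± 0.12). The antiviral GTPase MX2 read 4.55, 4.50, 4.48 and 4.45 against 9.85, 9.81, 9.84 and 9.50 (-5.25 ± 0.09). IFITM1, a membrane protein that blocks virus entry, was higher, with 8.12, 8.16, 8.22 and 8.91 against 5.08, 4.91, 4.88 and 5.25 (3.33 ± 0.16). It has near-identical paralogs. ISG20 (0.14 ± 0.12) and PARP14 (-0.11 ± 0.11) were not called. Uninduced U-H01 had DTX3L at 8.51 to 8.92 and PARP9 at 8.43 to 8.60, near HBL-1, but MX2 at 4.77 to 5.21, near the labelled induced arrays.

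The letters GAAANNGAAA, the core of the interferon-stimulated response element, were searched in the same way on both strands. Of 31 list members with a promoter entry, 21 held a match in the 250 bases before the start, against 3.71% of all 27305 genes. Of the 8 higher members with an entry 4 held a match, of the 6 lower members 3, and of the 17 uncalled members 14. The 4 matching members with called differences over 2-fold are shown because the same element stands before genes of both directions, with the match in capitals.
IFITM1: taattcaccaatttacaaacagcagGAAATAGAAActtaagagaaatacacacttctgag
SAMD9: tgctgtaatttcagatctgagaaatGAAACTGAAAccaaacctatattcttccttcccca
PARP9: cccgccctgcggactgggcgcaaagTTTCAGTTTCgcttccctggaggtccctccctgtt
MX1: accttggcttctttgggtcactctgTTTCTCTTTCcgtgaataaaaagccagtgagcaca

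IFITM1 and SAMD9 (1.46) were higher, PARP9 and MX1 (-1.73) lower. The stretches are chr11:313975-314034, plus strand for IFITM1, chr7:93118081-93118140, minus strand for SAMD9, chr3:122564307-122564366, minus strand for PARP9 and chr21:41431829-41431888, plus strand for MX1 (RefSeq, GRCh38.p14). The match starts 40, 136, 41 and 196 bases before the gene start in the same order. PARP9 and DTX3L run away from each other on chromosome 3 with starts 38 bases apart, so the element printed for PARP9 lies at the start of DTX3L as well. DTX3L is counted above as a lower member without a match. The element runs across its start, and the search covered only the bases before it.

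In the RefSeq gene order, DTX3L and PARP9 are followed by PARP15, which was also lower over 16-fold (difference -5.32), whereas PARP14, of the same gene family, was not called. These genes were singled out after their values were seen. Of the 164 genes with differences over 16-fold, 159 could be placed among protein-coding genes, and 4 pairs were direct neighbours, all 4 with the same direction. How often neighbours share a direction among all genes was not counted. The pairs PARP9 with DTX3L and DTX3L with PARP15 share a gene and are not independent. The other pairs were STK39 with the ceramide synthase gene CERS6 (5.02) and CAV1 with the receptor kinase MET (4.20).

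Receptors and sensors of the interferon system were higher in 10, lower in 6 and not called in 9 of 25 genes (64% called, median 0.091). STING1, the adaptor of DNA sensing, read 9.32, 9.45, 9.23 and 9.18 against 6.13, 6.11, 5.74 and 6.14 (3.26 ± 0.10), and the transcription factor IRF1 8.12, 8.57, 7.92 and 8.12 against 5.91, 6.09, 6.15 and 5.72 (2.21 ± 0.14). The kinase JAK1 was 4.62-fold higher (2.21 ± 0.12). The Toll-like receptor TLR6 was lower (-2.04 ± 0.10). The kinase TBK1 (0.22 ± 0.10) and the receptor escort UNC93B1 (-0.18 ± 0.085) were not called.

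Secreted signals and their receptors went both ways. Of 29 cytokine and chemokine genes, 8 were higher, 7 lower and 14 not called (51.7% called, median 0.10). The chemokine CXCL10 read 8.10, 7.48, 8.29 and 8.91 against 3.64, 3.77, 3.86 and 3.80 (4.43 ± 0.22), with uninduced U-H01 at 9.02 to 10.40. Lymphotoxin alpha, LTA, was higher than in HBL-1, with 7.19, 6.80, 7.19 and 7.56 against 5.66, 5.42, 5.53 and 5.08, yet far under uninduced U-H01 at 11.57 to 12.09. The suppressive cytokine IL10 was higher (1.48 ± 0.11) and the lymphocyte growth factor IL7 lower (-3.12 ± 0.15). TGFB1 missed the threshold (0.30 ± 0.11, adjusted p = 0.0516).

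Of 31 cytokine and chemokine receptors, 13 were higher, 9 lower and 9 not called (71% called, median 0.059). The 4 largest differences were lower ones. Besides IL17RB they were the interleukin-10 receptor chain IL10RA, with 4.59, 4.65, 4.83 and 4.66 against 9.61, 9.95, 9.70 and 10.31, the follicle-homing receptor CXCR5, with 4.16, 4.99, 4.71 and 4.56 against 9.64, 9.50, 9.57 and 9.47, and the TGF-beta receptor TGFBR2 (-3.83 ± 0.11). Uninduced U-H01 carried IL10RA at 9.12 to 9.68, but CXCR5 at 4.32 to 4.97. IL10, the ligand, was higher and IL10RA, its receptor chain, lower in the same arrays. The lymph-node homing receptor CCR7 (0.28 ± 0.11, adjusted p = 0.066) and IL12RB1 (-0.12 ± 0.088) were not called.

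In the TNF receptor family, 5 of 19 were higher, 5 lower and 9 not called (52.6% called, median 0.012). After TNFRSF8 and CD27, the death receptor FAS read 9.11, 8.95, 8.26 and 9.12 against 6.47, 6.29, 6.28 and 6.17 (2.56 ± 0.16). TNFRSF1B, the second TNF receptor, was lower, with 6.76, 6.92, 6.69 and 6.67 against 8.88, 8.72, 8.93 and 8.80 (-2.07 ± 0.088). The death receptor TNFRSF10B did not overlap but was not called (0.24 ± 0.10, adjusted p = 0.0688).

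Of 32 molecules of immune contact, 10 were higher, 10 lower and 12 not called (62.5% called, median 0.04). SLAMF6, a receptor between lymphocytes, read 10.17, 10.06, 9.77 and 10.10 against 5.04, 5.27, 5.27 and 5.62 (4.72 ± 0.11). CD58, the ligand of CD2 on T and NK cells, read 9.39, 8.94, 8.90 and 8.64 against 4.67, 4.87, 4.81 and 4.45 (4.27 ± 0.14), and the costimulator CD86 7.80, 7.25, 7.45 and 7.50 against 4.47, 4.53, 4.82 and 5.0 (2.80 ± 0.14). The adhesion molecule ICAM3 was lower (-3.39 ± 0.11) and NECTIN2 not called (0.044 ± 0.085). Uninduced U-H01 lay under HBL-1 for SLAMF6 (3.37 to 3.80), near the labelled induced arrays for CD58 (8.33 to 8.62) and above them for CD86 (9.72 to 10.36).

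Of 21 JAK-STAT and PIM genes, 6 were higher, 7 lower and 8 not called (61.9% called, median 0.062). JAK1 was higher and PIM1 and PTPN1 lower, as given with their other lists. STAT5A, which carries cytokine signals to the nucleus, was lower, with 5.17, 5.0, 4.77 and 5.68 against 7.07, 7.06, 7.15 and 6.86 (-1.88 ± 0.15), and uninduced U-H01 lay above both at 8.60 to 9.51.

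AP-1 and ERK-response genes gave 9 higher, 9 lower and 12 uncalled of 30 (60% called, median -0.03). The phosphatase DUSP2 read 5.96, 6.59, 6.76 and 7.0 against 9.64, 9.20, 9.54 and 8.93 (-2.75 ± 0.17). EGR1, an early-response factor, read 6.18, 6.42, 6.47 and 6.30 against 9.12, 7.80, 9.14 and 7.29 (-2.00 ± 0.11), with the uninduced HBL-1 arrays above the induced ones and a difference of -1.21 where only the induced ones were kept. The AP-1 subunit JUNB (1.77 ± 0.12) and the ETS factor ETV5 (1.44 ± 0.13) were higher. IER2 (0.068 ± 0.12) and JUND (-0.18 ± 0.12) were not called.

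G-protein signalling genes were lower in 11, higher in 8 and not called in 13 of 32 (59.4% called, median -0.049). Besides RGS13 and GPR160, the regulator RGS2 read 4.95, 4.42, 4.45 and 4.85 against 7.78, 8.47, 7.94 and 8.90 (-3.60 ± 0.14) and the subunit GNG2 4.39, 4.75, 4.75 and 4.85 against 8.30, 8.12, 8.35 and 8.03 (-3.52 ± 0.10, but -1.95 with the mean of its probe sets). Uninduced U-H01 was above HBL-1 for both, at 9.84 to 10.32 and 8.80 to 9.42. GNB1 (0.12 ± 0.085) and GNAS (0.16 ± 0.08) were not called.

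Of 28 Notch and Wnt pathway genes, 10 were lower, 6 higher and 12 not called (57.1% called, median -0.10). LEF1, a nuclear effector of Wnt, read 4.84, 4.52, 4.69 and 4.71 against 8.96, 9.06, 8.95 and 8.94 (-4.29 ± 0.091), and the Wnt coreceptor LRP6 3.96, 4.02, 4.08 and 4.21 against 7.83, 8.34, 7.82 and 8.16 (-3.97 ± 0.09). The Notch target HES1 was higher, with 8.63, 8.90, 7.80 and 9.11 against 5.46, 5.78, 5.29 and 5.32 (3.15 ± 0.22), and the Notch regulator DTX1 lower (-2.53 ± 0.10). HES4 (0.028 ± 0.10) and WNT10B (-0.10 ± 0.12) were not called.

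Of 17 BCL2 family genes, which decide on mitochondrial cell death, 9 were lower, 2 higher and 6 not called (64.7% called, median -0.34). The lower ones held both protectors and killers. BCL2 read 8.35, 8.42, 7.65 and 8.82 against 9.91, 9.98, 9.92 and 10.06 (-1.66 ± 0.18) and its relative BCL2A1, an NF-kB target, 5.32, 5.31, 5.18 and 5.25 against 6.83, 6.99, 6.67 and 6.84 (-1.57 ± 0.086). The killers BMF (-1.40 ± 0.20) and BCL2L11, also called BIM (-1.40 ± 0.089), were lower as well. BID (0.15 ± 0.10) and HRK (0.003 ± 0.10) were not called.

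Caspases and apoptosis inhibitors gave 8 higher, 3 lower and 9 uncalled of 20 (55% called, median 0.12). CFLAR, which blocks death-receptor signals, read 7.55, 7.50, 7.05 and 7.28 against 8.91, 8.88, 9.00 and 9.25 (-1.66 ± 0.12), opposite to the receptor FAS. CASP10 (1.19 ± 0.13) and CASP9 (1.08 ± 0.10) were higher and CASP2 was not called (-0.094 ± 0.083).

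Proliferation genes differed mostly by under 2-fold. Of 22 cyclin and CDK inhibitor genes, 11 were lower, 6 higher and 5 not called (77.3% called, median -0.16), 3 of them over 2-fold. With only the induced HBL-1 arrays kept 11 were called, while the count over all 18417 genes fell from 7578 to 6544. The tumour suppressor RB1 read 8.53, 8.73, 8.35 and 8.44 against 10.50, 10.59, 10.63 and 10.69 (-2.09 ± 0.10), and CDKN2A, which encodes p16, was higher (1.71 ± 0.13). CCND2 (-1.17 ± 0.091) and CCND3 (-0.97 ± 0.11) were lower. CCNA2 (-0.056 ± 0.092) and CCNE1 (-0.023 ± 0.10) were not called.

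DNA replication genes leaned lower, with 13 lower, 3 higher and 13 not called of 29 (55.2% called, median -0.29). The helicase subunit MCM5 (-1.25 ± 0.086) and the polymerase POLD1 (-0.98 ± 0.10) were lower, while the polymerase POLE read 9.57, 9.52, 9.64 and 9.43 against 8.0, 7.62, 7.99 and 7.65 (1.73 ± 0.084) and thymidylate synthase TYMS was higher (0.92 ± 0.12). PCNA (-0.26 ± 0.10) and RFC3 (-0.22 ± 0.10) were not called. Of 29 mitosis genes, 9 were higher, 10 lower and 10 not called (65.5% called, median -0.16), 2 over 2-fold. These were ANLN (1.2 ± 0.12) and BUB1B (1.08 ± 0.10). The kinase PLK1 (-0.83 ± 0.12) and CENPF (-0.84 ± 0.10) were lower, and KIF23 (-0.18 ± 0.11) and TOP2A (0.051 ± 0.082) not called.

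MYC and ribosome-biogenesis genes leaned lower, 11 of 23 against 2 higher and 10 uncalled (56.5% called, median -0.28). Ornithine decarboxylase ODC1 read 10.72, 10.38, 10.75 and 10.48 against 12.29, 12.41, 12.33 and 12.16 (-1.72 ± 0.10), and RRP12 (-1.56 ± 0.12), UTP20 (-1.26 ± 0.14) and PES1 (-1.08 ± 0.10) followed. NPM1 (0.11 ± 0.081) and NOP58 (-0.20 ± 0.086) were not called. Of 26 ribosomal protein genes, 5 were higher, 4 lower and 17 not called (34.6% called, median -0.016), with 4 called when only the induced HBL-1 arrays were kept. That setting called 6544 of all 18417 genes, against 7578. RPL22L1 was lower (-1.28 ± 0.16) and its paralog RPL22 higher (0.87 ± 0.20). RPS9 was lower (-0.73 ± 0.085). RPS27L, with overlapping sets (-0.55 ± 0.15, adjusted p = 0.00778), lost its call with only the induced HBL-1 arrays (-0.33, adjusted p = 0.233) or only population B1 (-0.32, adjusted p = 0.14). RPL5 (-0.10 ± 0.086) and RPL4 (0.07 ± 0.08) were not called.

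In energy metabolism, 8 of 24 oxidative phosphorylation genes were lower, 6 higher and 10 not called (58.3% called, median 0.049), none over 2-fold. The called count was 9 with only the induced HBL-1 arrays and 9 with only population B1. Over all 18417 genes these settings called 6544 and 6844, against 7578 with all arrays of the comparison. SDHA (0.98 ± 0.10), CYC1 (0.60 ± 0.11) and UQCRC2 (0.57 ± 0.10) were higher and SDHD lower (-0.62 ± 0.083). ATP5F1B (0.22 ± 0.084) and ATP5F1C (-0.001 ± 0.089) were not called. Glycolysis and hypoxia genes gave 7 higher, 6 lower and 11 uncalled of 24 (54.2% called, median 0.089). BNIP3, a mitophagy receptor induced by low oxygen, read 4.75, 4.64, 4.44 and 4.56 against 9.09, 9.58, 9.10 and 9.68 (-4.76 ± 0.091), and the aldolase ALDOC was lower as well (-3.00 ± 0.15). The glucose transporter SLC2A3 (2.65 ± 0.25) and the enolase ENO2 (1.25 ± 0.15) were higher, and LDHA was not called (0.12 ± 0.082).

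Of 26 genes of amino acid transport and synthesis, 11 were lower, 8 higher and 7 not called (73.1% called, median -0.14). The first 2 enzymes of serine synthesis were both lower over 16-fold. PHGDH read 5.49, 5.60, 5.59 and 5.72 against 10.95, 10.83, 10.97 and 10.30 (-5.16 ± 0.11, 35.8-fold) and PSAT1 5.05, 4.54, 4.99 and 4.95 against 10.59, 10.36, 10.60 and 9.99 (-5.50 ± 0.12, 45.3-fold). Uninduced U-H01 had PSAT1 at 9.26 to 9.95, near HBL-1, but PHGDH at 5.39 to 5.65, near the labelled induced arrays. The transporter SLC43A1 was lower (-2.61 ± 0.10). The glutamine transporter SLC38A1 was not called, with 11.28, 11.04, 11.21 and 11.10 against 11.34, 11.16, 11.47 and 11.31, while uninduced U-H01 lay at 3.93 to 4.50. The serine-to-glycine enzyme SHMT2 was not called (0.15 ± 0.11).

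Sterol and fatty acid synthesis gave 8 higher, 6 lower and 7 uncalled of 21 (66.7% called, median 0.084), with 9 called when only the induced HBL-1 arrays were kept. That setting called 6544 of all 18417 genes, against 7578. CYP51A1, which removes a methyl group from lanosterol, read 4.29, 5.31, 5.17 and 4.65 against 10.34, 10.28, 10.37 and 10.37 (-5.48 ± 0.18), while uninduced U-H01 had 10.53 to 10.62. Its smallest difference under any alternative of the processing was -4.48. The later sterol enzyme SC5D (-2.30 ± 0.14) and the desaturase FADS2 (-1.72 ± 0.12) were lower too. SREBF1, which drives lipid genes, was higher (1.48 ± 0.11), and ACLY (-0.22 ± 0.094) and SQLE (0.10 ± 0.12) were not called. Of 28 xenobiotic and oxidative enzymes, 6 were higher, 9 lower and 13 not called (53.6% called, median 0.068). After ALDH1A1, the glutathione transferases GSTP1 (-2.49 ± 0.14) and GSTM1 (-2.42 ± 0.10) and the lipoxygenase ALOX5 (-2.32 ± 0.083) were lower. GSTM1 is deleted in many genomes and has close paralogs. TXNRD1 (0.07 ± 0.12) and SRXN1 (0.26 ± 0.14) were not called.

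Chaperones were counted by compartment. In the endoplasmic reticulum, 8 of 27 genes were higher, 8 lower and 11 not called (59.3% called, median -0.037). SEL1L was higher beside XBP1 (1.57 ± 0.10), and HERPUD1 (-1.37 ± 0.10) and EDEM1 (-1.24 ± 0.12) were lower, all of them parts of the disposal of misfolded proteins. The chaperone HSPA5, known as BiP, read 11.63, 11.43, 11.46 and 11.54 against 11.43, 11.75, 11.50 and 11.53 and was not called (-0.037 ± 0.09, adjusted p = 0.81), nor was PDIA6 (-0.015 ± 0.084). Of 15 heat-shock chaperones, 10 were lower, 3 higher and 2 not called (86.7% called, median -0.40). HSPB1 read 6.50, 6.26, 6.76 and 6.45 against 8.97, 9.20, 9.18 and 9.26 (-2.66 ± 0.11), and uninduced U-H01 lay far above both at 11.06 to 11.14. The HSP90 genes went opposite ways, HSP90AB1 lower (-0.95 ± 0.10) and HSP90AA1 higher (0.90 ± 0.093). HSPH1 was lower (-0.66 ± 0.13), and STIP1 (-0.22 ± 0.11) and CRYAB (-0.18 ± 0.11) were not called.

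Surface and adhesion genes gave 11 higher, 8 lower and 11 uncalled of 30 (63.3% called, median 0.025). CD44, a hyaluronan receptor, read 5.75, 5.92, 6.01 and 6.09 against 10.79, 10.82, 10.75 and 10.97 (-4.89 ± 0.10), and the adhesion molecule ALCAM was lower (-3.74 ± 0.18), next to CDH2 as lower and ITGA4 as higher. CD99 (0.27 ± 0.11) and ITGB5 (0.10 ± 0.10) were not called. Of 26 glycan-modifying enzymes, 9 were higher, 7 lower and 10 not called (61.5% called, median 0.003). The transferases MGAT5 (2.61 ± 0.13), ST3GAL5 (2.29 ± 0.21) and B4GALT1 (2.12 ± 0.10) were higher, GCNT2 was lower, with 4.41, 4.37, 4.18 and 4.25 against 7.74, 7.47, 7.71 and 7.65 (-3.34 ± 0.09), and HS6ST1 was not called (-0.09 ± 0.083).

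Of 22 S100, annexin and related genes, 5 were higher, 4 lower and 13 not called (40.9% called, median -0.10). The intermediate filament VIM read 9.69, 9.87, 9.20 and 9.62 against 4.91, 5.17, 5.08 and 4.66 (4.64 ± 0.15), with uninduced U-H01 at 10.72 to 10.83. S100A10 read 4.64, 4.54, 4.80 and 4.62 against 8.28, 9.08, 8.34 and 9.59 (-4.17 ± 0.11) and S100A11 4.20, 4.20, 4.50 and 4.18 against 6.84, 7.74, 6.87 and 8.03 (-3.10 ± 0.10). In both, the induced HBL-1 arrays lay above the uninduced ones, so the distance to the labelled induced arrays was larger for the induced cells. ANXA6 was higher (3.53 ± 0.089), and ANXA5 (0.13 ± 0.10) and ANXA11 (0.25 ± 0.10) were not called.

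Of 24 HOX genes and cofactors, which pattern the body axis, 5 were higher, 1 lower and 18 not called (25% called, against 41.1% of all genes), none over 2-fold. HOXB7 was lower (-0.96 ± 0.10), and HOXB3 (0.58 ± 0.11), HOXC5 (0.56 ± 0.12) and HOXC8 (0.47 ± 0.12) were higher. HOXB4 (0.012 ± 0.10) and HOXD4 (0.091 ± 0.10) were not called. Of 20 cancer-testis antigen genes, 5 were lower, 0 higher and 15 not called (25% called). MAGEA1 read 5.07, 5.12, 4.63 and 5.13 against 7.94, 7.98, 8.03 and 7.57 (-2.89 ± 0.13), and CTAG2 (-0.89 ± 0.10), SPA17 (-0.40 ± 0.08) and MAGEB2 (-0.38 ± 0.092) differed by under 2-fold. ATAD2 (0.011 ± 0.10) and PAGE5 (-0.062 ± 0.11) were not called. The MAGEA genes are close paralogs. SPA17 (means 4.05 against 4.45) and MAGEB2 (4.06 against 4.44) lay near the arrays' lower quartile of 4.183 to 4.284 in both sets. HOXC5 (5.03 against 4.47) and HOXC8 (5.52 against 5.05) lay under the lowest array median of 5.788. At such levels a dim signal is hard to tell from background.

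Chromatin regulators gave 10 higher, 8 lower and 11 uncalled of 29 (62.1% called, median 0.006). The remodelling ATPases SMARCA1, with 4.19, 4.02, 4.05 and 4.13 against 5.37, 6.71, 5.43 and 7.30 (-2.10 ± 0.12), and SMARCA2 (-1.58 ± 0.12) were lower. The induced HBL-1 arrays of SMARCA1 lay above the uninduced ones, and with only the uninduced ones kept the difference was -1.30. The histone methyltransferases NSD2 (1.5 ± 0.11) and KMT2C (0.97 ± 0.12) were higher, and HDAC1 (0.18 ± 0.10) and SUZ12 (-0.031 ± 0.087) were not called.

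Markers of other cell types were counted in the same way. Of 23 T- and NK-cell genes, 5 were higher, 4 lower and 14 not called (39.1% called, near the 41.1% of all genes). Granzyme B, GZMB, read 5.84, 6.41, 6.57 and 5.82 against 8.46, 8.48, 8.21 and 8.87 (-2.35 ± 0.17) and perforin, PRF1, 5.64, 5.88, 5.77 and 5.92 against 7.32, 8.07, 7.56 and 7.86 (-1.90 ± 0.10), both higher in HBL-1. The T-cell receptor chain CD247 was also higher in HBL-1 (-2.11 ± 0.14), whereas the kinase ZAP70 was higher in the labelled induced arrays (1.98 ± 0.12). Of 17 myeloid genes, 1 was called, and of 19 stromal, endothelial and epithelial genes 3 were higher, 2 lower and 14 not called (26.3% called). CD68 was the 1 called myeloid gene (0.42 ± 0.083), and TYROBP (-0.007 ± 0.085) and ELANE (-0.078 ± 0.12) were not. E-cadherin, CDH1, read 8.23, 7.98, 7.93 and 7.67 against 4.52, 4.57, 4.49 and 4.89 (3.33 ± 0.12), the collagen chain COL6A3 8.12, 8.03, 7.50 and 6.93 against 4.60, 4.35, 4.25 and 4.41 (3.25 ± 0.21), and PECAM1 (-2.50 ± 0.086) and EPCAM (-1.71 ± 0.11) were lower. With the mean of its probe sets taken, PECAM1 differed by -1.43. KRT18 (0.23 ± 0.11) and COL1A1 (0.22 ± 0.10) were not called.

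**Figure D5:**
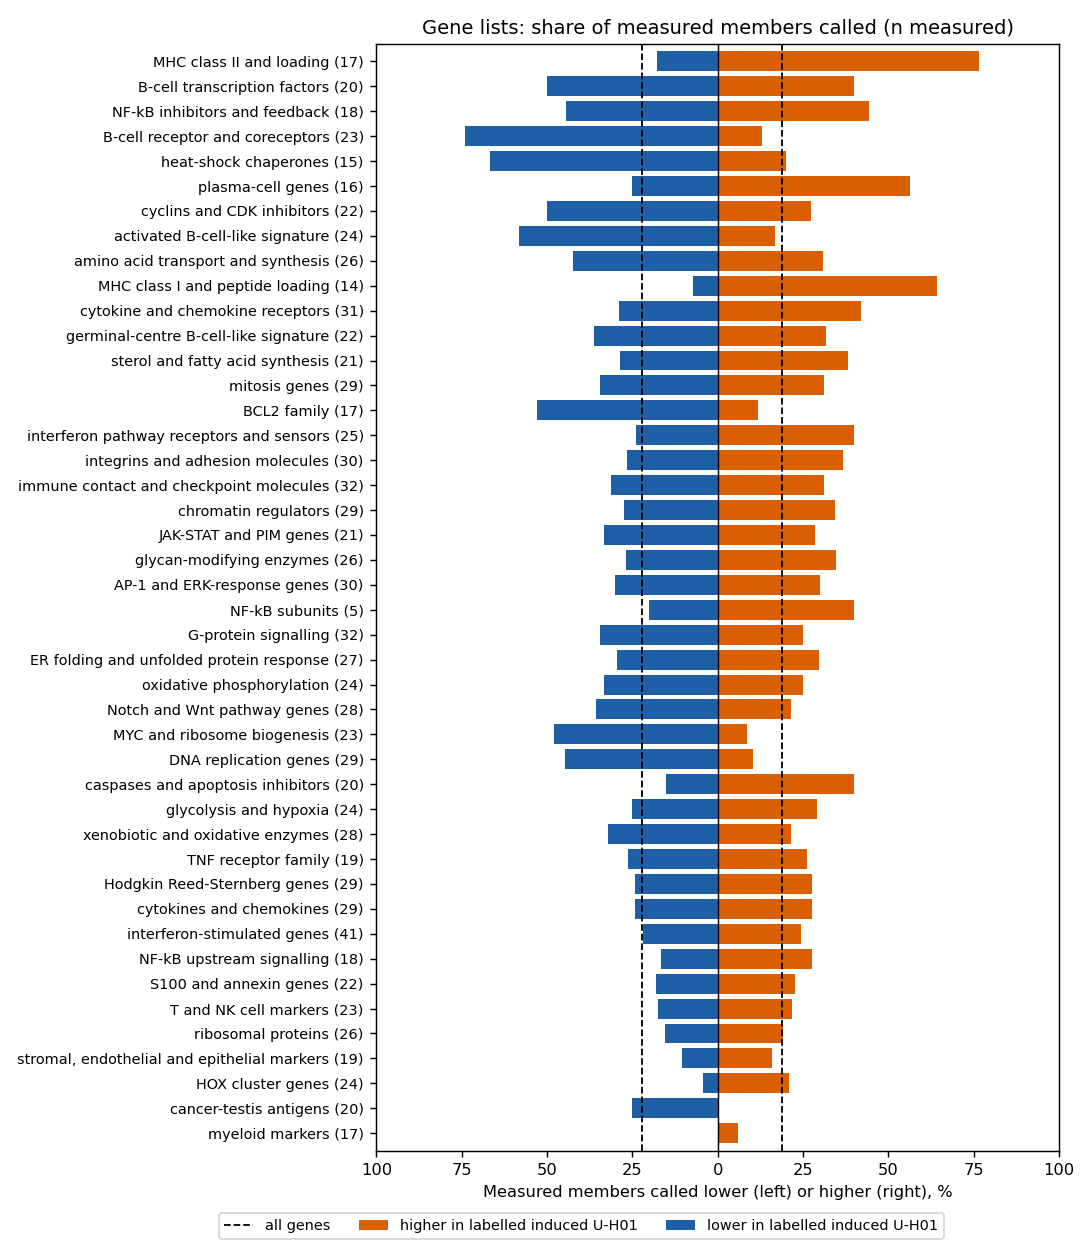
Share of each list's measured members called higher (right, orange) or lower (left, blue) in the arrays labelled induced U-H01, in percent, with the number measured in brackets. Dashed lines mark all genes, 18.9% higher and 22.3% lower. The bar of MHC class II reaches furthest right, that of the B-cell receptor furthest left, and myeloid markers have the shortest.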

How the data were processed

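Total RNA of 12 samples was read on single-colour arrays with biotin label. The deposited values are log2 signals. The submitters' processing notes name RMA and Partek without versions. Arrays have no read depth, and the number of arrays limits the precision. RNA had been isolated with a column kit, checked for quality and amplified, per the labels' protocols.

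Of 33297 probe sets, 19460 name 1 gene in the platform annotation, 1754 name several and 12083 none, and 19429 matched the RefSeq table by Entrez number, which changed 0 symbols. Where a gene had several probe sets (769 of 18417 genes), the brightest by its mean in all 12 arrays was taken. The deposited scale was kept: array medians ran from 5.788 to 5.883. No pair of arrays held identical values (0 pairs).

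limma 3.58.1 in R 4.3.3 fitted 3 group means to the 8 arrays, labelled induced U-H01, uninduced HBL-1 and induced HBL-1, and the first was set against the mean of the other two, with 5 residual degrees of freedom and Benjamini-Hochberg adjustment over the 19460 probe sets. A gene was called at an adjusted p under 0.05. On simulated data for this comparison, with 19460 probe sets, 41 of 67 changes of 1.41-fold, 64 of 67 of 2-fold and 66 of 66 of 4-fold were recovered, and 6 of 19260 unchanged ones were called. Only these few probe sets were changed in the simulation, with independent noise, whereas 41.1% of genes were called in the data. Its recovery and its false calls therefore need not hold for the real comparison.

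Text names the 12 largest differences in each direction among genes called without overlap, the 5 NF-kB subunits and, in each of 44 gene lists, up to 4 called members with the largest differences and up to 2 uncalled ones with the highest level. Genes that tell the donor's sex are not named. The comparison and the lists were chosen with earlier results of these data known. Promoter sequences are RefSeq's (GRCh38.p14), no source used here gives the arrays' own build, and figures were drawn with matplotlib 3.10.9. Alternatives covered the arrays in the fit, its terms, scaling, filters, probe sets and each array left out.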

Additional observations from a re-analysis of the deposited data

Results flagged for a closer look

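In 18 of the 260 named genes, 1 of the 4 labelled induced arrays lay far from the other 3 by Dixon's criterion. Chance alone gives about 1 in 20 such groups. The B2 time 1 array was the far one in 7 genes: it read 7.897 for TRAF1 (others 8.748 to 8.861), 9.526 for DENND3 (10.181 to 10.279), 10.928 for TAPBP (11.223 to 11.24), 6.78 for SSR4 (7.151 to 7.204), 4.626 for MAGEA1 (5.074 to 5.13), 5.834 for TYROBP (6.004 to 6.023) and 4.5 for S100A11 (4.176 to 4.197). It was below the others in 6 of these and above them in S100A11.

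The B2 time 2 array was far above the others for AFF3 (4.658, others 4.203 to 4.26), IFITM1 (8.914, others 8.125 to 8.218) and IL10 (8.517, others 8.129 to 8.148), and below them for TBK1 (8.701, others 9.004 to 9.017). The B1 time 2 array was above for ID2 (4.645, others 4.003 to 4.103) and below for PLK1 (9.81, others 10.093 to 10.149), ATP5F1C (10.944, others 11.152 to 11.173) and HOXB7 (5.454, others 5.733 to 5.785). The B1 time 1 array was above for ALCAM (6.321, others 5.37 to 5.401) and ANXA6 (10.793, others 10.564 to 10.593) and below for PAGE5 (5.459, others 5.804 to 5.866). Leaving out any 1 array ended the call of none of these genes that was called.

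The HBL-1 arrays differed by induction in 6 of the named genes (limma, induced minus uninduced, 2 arrays each). IDO1, by -1.994 (adjusted p = 2.9e-04), EGR1, by -1.584 (6.3e-04), and TNFRSF13B, by -0.647 (0.0291), were lower in the induced arrays. SMARCA1, by 1.608 (adjusted p = 6.7e-04), S100A11, by 1.03 (0.00566), and S100A10, by 1.024 (0.0113), were higher. For these genes the distance from the labelled induced U-H01 arrays depends on which HBL-1 arrays are used.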

How the results depend on the processing

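The count of called genes stayed within 1.5 times its value of 7578 under every alternative that kept the threshold (5853 to 7941, the lowest with only genes above the median level tested), and ran from 6840 to 7564 with each array left out in turn. The count of genes without overlap, 7310, ran from 7694 to 8186 with each array left out, where fewer arrays make overlap rarer, and from 5347 to 9288 otherwise. Keeping only differences over 2-fold left 2332 called genes and 2327 without overlap. The number in the titles did not pair the arrays (the changes from time 1 to time 2 correlated between populations at -0.271 to 0.1), and with it as a replicate block 7588 genes were called. Of 260 named genes, 179 called, none reversed and 2 lost the call at least once (RELB and RPS27L, given above), while 27 of 81 uncalled genes gained one at least once. Centring or quantile normalization left the share of higher calls at 44.3% and 49.6%, against 45.8%. With only genes above the median level tested, fewer members were left in dim lists, and the called counts fell to 13 for immune contact, 11 for AP-1, 10 for Notch and Wnt, 3 for cancer-testis, 2 for stromal and 0 for HOX and myeloid genes. The members left and their shares called are not given here, so these falls are not read as results about the lists. In the dimmer set, 9 of the 24 leading genes had means no higher than the arrays' lower quartile of 4.183 to 4.284, where a dim signal is hard to tell from background, so their folds may be too small. Another 13 lay between it and the lowest array median, and 2 above that. Detection calls were not used here.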

Other observations

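Within the sets, 2 arrays could be set against 2. Population B2 against B1 among the labelled induced arrays gave 13 called genes of 18417 by limma (1104 at an unadjusted p under 0.05), and induced against uninduced HBL-1 gave 97 (1533 at an unadjusted p under 0.05), where 5% of the genes is 921. These counts rest on fewer arrays a side than the count between the sets and are not compared with it. For 5 genes, different probe sets of the same gene were called in opposite directions: CLK4, CYTH2, MPLKIP, PHC3 and ZNF277. The widest of these was PHC3, a Polycomb gene, with differences of 3.54 and -0.26 from its 2 probe sets, followed by MPLKIP, with 0.79 from 1 probe set and -0.51 and -0.49 from the other two.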
